A study of Drosophila melanogaster with 2 samples.

Results

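Peaks of GFP-tagged Six4 at single promoters are described here, meaning promoters that do not share their upstream DNA with a second gene read in the opposite direction. A peak belonged to this class when its summit lay within 500 bp of the transcription start site (TSS) of a protein-coding transcript and the nearest such TSS had no protein-coding TSS of another gene on the opposite strand within 1 kb upstream. Of the 3974 peaks that passed the irreproducible discovery rate (IDR) procedure, 1040 met this rule (26.2%, exact 95% interval 24.8 to 27.6%). Another 821 (20.7%) lay at divergent promoters and 2113 outside the 500 bp limit. Within the IDR set the rule used positions only. The set itself was the same as the strongest entries of the pooled list, so members start at a signal of 81.1.

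Chromatin came from whole Drosophila melanogaster embryos of both sexes, collected 0 to 16 h after laying, of a transgenic line with a stable Six4 transgene that ends in GFP (an eGFP fusion, per the labels). Chromatin was sonicated to 200 to 800 bp and precipitated with an antibody against GFP. There were 2 libraries, biological replicates 1 and 3 of 1 group, both of this line, and no untagged or input library was analysed here. Recovery from a whole embryo cannot be assigned to a tissue, and sites bound by the tagged protein cannot be told apart from sites that an anti-GFP precipitation recovers by other routes.

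Six4 belongs to the sine oculis family of homeodomain proteins and in the fly is known for its part in the development of muscle, of other mesodermal tissue and of the gonad. Proteins of this family recognise DNA with a TGATAC-like core, often together with an Eya partner protein. Many fly genes start from a promoter of their own, while others share a compact region with a neighbour read in the opposite direction. Short elements near the TSS, such as the TATA box, the initiator and the downstream promoter element, position the transcription machinery. The DNA replication-related element (DRE) and the site of motif 1 binding protein (M1BP) mark promoters of broadly expressed genes.

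The sequences below carry the findings on DNA words, and each is read from the Release 6 (dm6) genome, 5′ to 3′. The first is the 101 bp around the summit of CG14100, the strongest member shown here, on the minus strand at chr3L:19590570-19590670, between genes. It has no word in capitals because it held none of the words marked below.
CG14100: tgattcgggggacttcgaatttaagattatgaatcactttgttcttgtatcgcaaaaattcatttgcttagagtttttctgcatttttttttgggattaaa
The next set shows the 9-letter word CCACTGTGC (capitals), which was frequent in member windows. The copies lay in introns at chr2L:4997563-4997591 (minus strand) for Rtnl1, at chr3L:3081502-3081530 (plus) for PAN3, at chr2L:7530626-7530654 (minus) for RapGAP1 and at chr2L:9569923-9569951 (minus) for brwl.
Rtnl1: gctggcgtgcCCACTGTGCactgcttgat
PAN3: gcttttgcgaCCACTGTGCgcagtcgctg
RapGAP1: tgtgtctggcCCACTGTGCgttggcagag
brwl: cactttggtcCCACTGTGCgctggcagca
The DRE, TATCGATA (capitals), is shown between genes on the plus strand upstream of eEF1gamma at chr3R:29220121-29220148 and of RpS10b at chrX:19597944-19597971.
eEF1gamma: gcctaggaaaTATCGATAtatcgccgta
RpS10b: cttaagataaTATCGATAtattgccggc
The M1BP word, GGTCACACT (capitals), is shown on the plus strand upstream of CG10068 at chr3R:7128240-7128268, between genes, and just upstream of the TSS of RpL37A at chr2L:5070980-5071008, where the lower-case letters after the word cross the TSS into the untranslated first exon.
CG10068: ctcaacaaacGGTCACACTgctgttataa
RpL37A: atcgagcggcGGTCACACTtttcgctctt
The Six-type core, TGATAC (capitals), is shown for the 2 strongest members that held it on the arms printed here, both in introns on the minus strand, Trp1 at chr2L:10010246-10010271 and aru at chr2L:866119-866144.
Trp1: gaagctgtatTGATACtcatagctgt
aru: actgctggatTGATACactgaaaaca

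The members were spread over many genes rather than gathered at a few. They were nearest to 982 start sites of 924 genes, and these genes were 9.57% of the 9654 protein-coding genes with at least 1 non-divergent TSS. Per start site the share was 7.32% of 13422. Most of these genes, 827, had 1 member peak, 86 had 2, and 11 had 3 or more. All arms carried members in similar proportion, from 6.59% of non-divergent start sites on 2R to 8.20% on X, with 5.26% on the small chromosome 4, which had 6 members. The peaks at divergent promoters included none on chromosome 4 and 82 on X.

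Six4-GFP summits lay upstream of the start site. The median position was −166 bp (quartiles −285 and −77 bp), and 906 of 1040 summits (87.1%, interval 84.9 to 89.1%) were upstream. In the list of replicate 1 alone the median was −164.5 bp with 85.5% upstream, and in that of replicate 3 alone it was −166 bp with 86.8% upstream. At divergent promoters summits lay closer to the start, at a median of −82 bp, where the spacing of the paired start sites bounds the distance. In annotation terms 501 member summits (48.2%) fell between protein-coding genes, 386 (37.1%) in introns, 150 (14.4%) in untranslated exons and 3 in coding sequence.

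**Figure D1:**
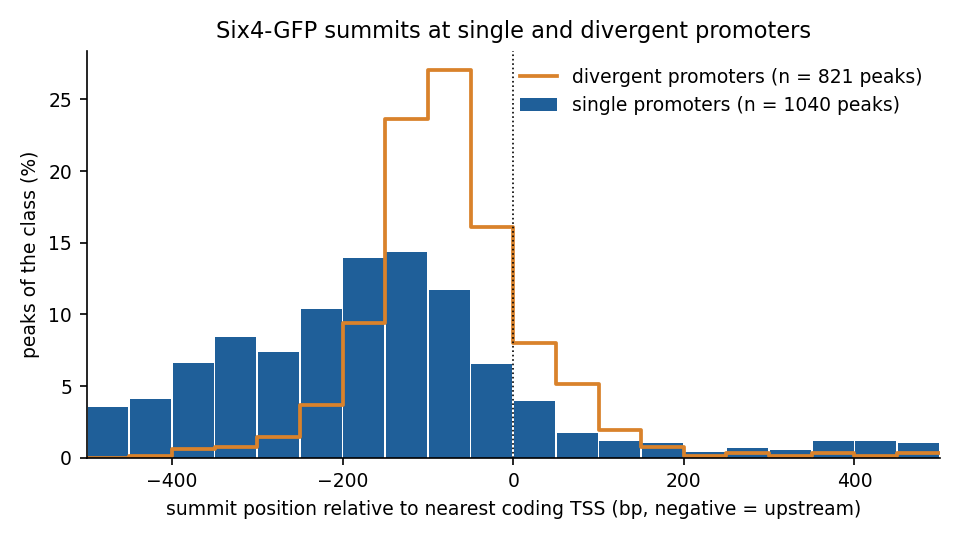
Position of peak summits relative to the nearest protein-coding TSS, in bins of 50 bp; bars give the share of the 1040 single-promoter peaks and the line the share of the 821 divergent-promoter peaks. The bars are broad and reach furthest upstream, with 14.3% in the bin from −150 to −100 bp, while the line peaks at 27.0% between −100 and −50 bp.

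Strength differed with position. The 330 members with summits 151 to 300 bp upstream had the highest median signal, 160.1, and 85.8% of them (interval 81.5 to 89.3%) ranked in the upper list of both replicates. The 109 members within 50 bp of the TSS had the lowest, 115, with 71.6% in both (62.1 to 79.8%). The 93 members further downstream than 50 bp had a median of 130.3, with 71.0% in both. Base composition moved with position too: GC content within 100 bp of the summit was 34.1% in the first of these groups, 41.7% within 50 bp of the TSS and 38.4% downstream. The part of base composition in the signal was not tested.

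Many members lay at start sites other than the most 5′ one of their gene. Of 635 member peaks at genes with several start sites, 243 (38.3%, interval 34.5 to 42.2%) were at the most 5′ one, against 254 of 352 (72.2%, 67.2 to 76.8%) at divergent promoters. The rule asks for a neighbour's start upstream in the divergent class only, so these shares are not bound alike. Genes with 2, 3 and at least 4 start sites had 3262, 1522 and 1847 non-divergent ones, in 1826, 609 and 428 genes. A gene has a single most 5′ start site, so many of these cannot be it. The share over all of them was not computed, so 38.3% is not read as a trait of the members. The share of non-divergent start sites with a member rose with the number of start sites of the gene, from 5.63% for genes with 1 to 8.03%, 9.53% and 10.4% for genes with 2, 3 and at least 4. The summit lay inside the body of its own gene for 44.2% of members, and inside another coding gene for 117 of them (11.25%).

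Genes with 3 or more member peaks had from 2 to 11 annotated start sites. Rtnl1, which encodes a reticulon that shapes the endoplasmic reticulum, had 5 members at 4 of its 7 start sites, with signals from 95.3 to 656. Ptpmeg2, a protein tyrosine phosphatase gene, had 5 at 5 of 6 start sites, and dnc, the cAMP phosphodiesterase gene, had 5 at 4 of 9 start sites spread over 73343 bp. RapGAP1, a regulator of the small GTPase Rap1, and Moe, the moesin gene, had 4 each, with strongest signals of 535 and 169. The genes with 3 were larp, brwl, CG5910, spri, SNF4Agamma (the gamma subunit of AMP-activated kinase) and l(3)neo38. Some of these peaks overlap each other and share 1 entry of a replicate list, as with both RapGAP1 peaks upstream of its start at 7530574 on 2L. Across all members 40 (3.85%) had a summit within 1 window of 200 bp of another member's summit.

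Single promoters were most common among the strongest peaks. They made up 35% of the 500 strongest entries of the pooled list (interval 30.8 to 39.4%), 28.2% of the next 500 and 24.0% of those ranked 3001 to 3974. Below the IDR set the share was 25.1% at ranks 3975 to 6000 and 13.5% at ranks 20001 to 30000. Divergent promoters held 22.4% of the first 500 and 4.68% of the last range. Non-divergent start sites were 13422 of all 19607 protein-coding ones. Peaks of the IDR set were nearest to 982 of these 13422 and to 815 of the remaining, divergent ones. The shares of entries are not set against these numbers, so they do not show which promoter type is favoured. Because the IDR set was the same as the upper end of the pooled list, these ranges describe 1 ordering of pooled data, not an effect measured over replicates.

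**Figure D2:**
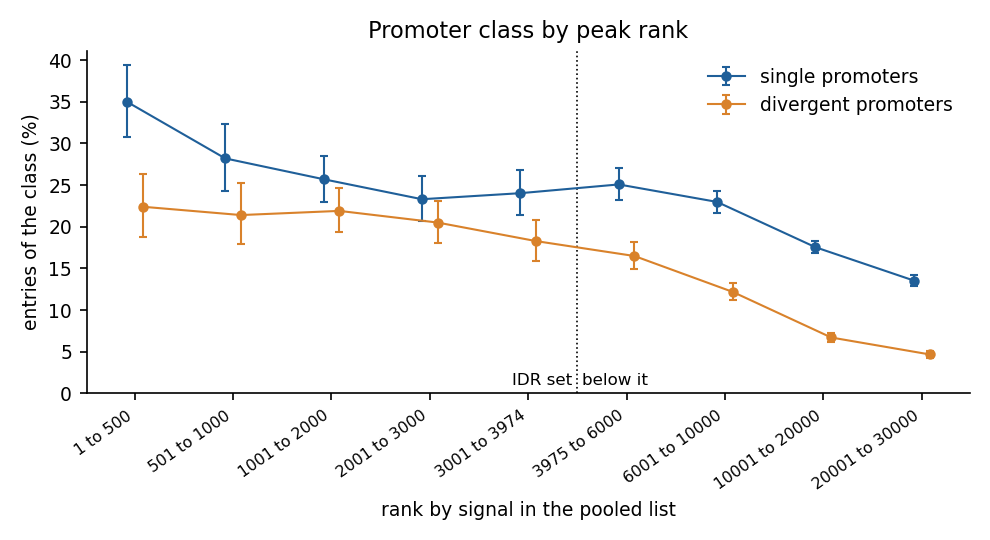
Share of entries at single and divergent promoters (y axis, percent) in ranges of rank by signal in the pooled list (x axis); bars are exact 95% intervals for counting error. The share at single promoters runs from 35% in the first range to 13.5% in the last, above that at divergent promoters in each range. Non-divergent start sites are 13422 of all 19607 protein-coding ones, and the shares are not corrected for this.

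The median signals of the promoter classes lay close together. The median was 135.6 for the members (range 81.1 to 1571), 131.9 for divergent-promoter peaks and 123 for peaks outside promoters. Among the 3974 strongest entries of replicate 1, the medians were 61.5 at single and 60.0 at divergent promoters. In replicate 3 they were 76.0 and 76.8, so the difference changed direction between the replicates. An exact two-sided permutation test over the replicate values gave p = 1 (n = 2 against 2). The smallest p this design allows is 0.333, so it could not have told the classes apart. The test also left out that each library gave a value for both classes.

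The replicates ranked the members alike. Each of the 1040 members overlapped an entry in both replicate lists. Within the 3974 strongest entries of each, 917 (88.2%) were found in replicate 1, 956 (91.9%) in replicate 3, 836 (80.4%, interval 77.8 to 82.8%) in both and 3 in neither. The share in both was 82.1% for divergent-promoter peaks and 75.6% for peaks outside promoters. The match was the strongest overlapping entry, so a weak member could take the rank of a stronger neighbour. Mer, at pooled rank 3945, had ranks of 939 and 894. A stricter match by summit gave a lower share in both, as given in the last section. Matched summits lay a median of 14 bp away in either replicate. Spearman's rho of the signals was 0.81 across the 1040 members, a description of peaks that share their libraries and the pooled selection.

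**Figure D3:**
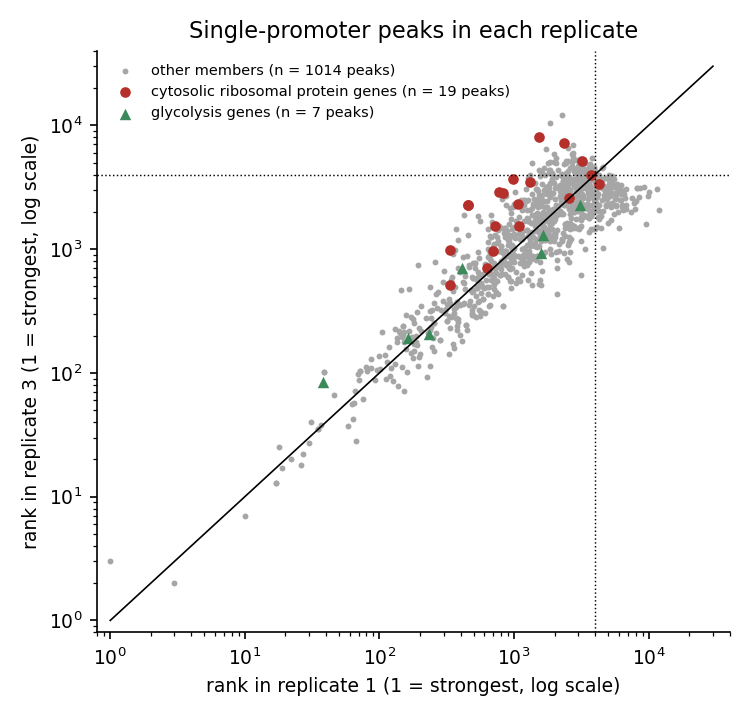
Rank of each member's matching entry in replicate 1 (x axis) and replicate 3 (y axis), both on log scales, with the line of equal rank and dotted lines at rank 3974. Peaks of cytosolic ribosomal protein genes (red) lie mostly above the line, that is, further down the list of replicate 3, while those of glycolysis genes (green triangles) lie on both sides of it.

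The strongest members lay at genes of unrelated function. The px peak (px is needed for the normal pattern of wing veins) had a signal of 725 in replicate 1 and 849 in replicate 3, and ranked 1 and 3. The peak at CG14100 had 634 and 901.4 and ranked 3 and 2. At ph-p, a Polycomb group gene, the signals were 434 and 619.7 with the summit at −473 bp, so that the site lay well upstream of the start it was assigned to. Of the 20 strongest members, 19 were upstream of the start site, 11 were at the most 5′ start site of their gene, and all ranked no lower than 67 in replicate 1 and 85 in replicate 3.

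Several of these 20 lay at genes of RNA handling, membranes and metabolism, which are named for their strength and not as a group. The signals of larp, a La-related RNA-binding protein gene, were 363 and 475, and those of PAN3, a subunit of a poly(A) nuclease, were 264 and 352. Sox14, an HMG-box transcription factor gene, had 319 and 408 with a summit at −247 bp, and gish, a casein kinase I gene, had 329 and 464 at −174 bp. Rtnl1 had 263 and 390.1 at its strongest member. The metabolic genes among them were aay, which encodes phosphoserine phosphatase (263 and 350.1), Gapdh2, a glycolytic enzyme (299 and 306), and GstE13, a glutathione S-transferase gene and the one gene of the 20 with a downstream summit, at 64 bp (267 and 397). The others were CG1888, Tina-1, CG13921, CG18549, Fkbp14, CG31145, MFS18, MFS10 and brwl, with pooled signals between 616 and 899.

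Members on which the replicates differed most in rank, by the ratio of the ranks, had pooled signals from 82.7 to 222. Thor, the gene of the translation inhibitor 4E-BP, ranked 1864 in replicate 1 and 10366 in replicate 3, with the summit 29 bp downstream of the start. The peaks at tna and at the ribosomal protein genes RpS27A and RpL30 differed in the same direction, with ranks of 2255 and 12184, 1528 and 8017, and 454 and 2283. In the other direction, bcd, the anterior determinant, ranked 4556 in replicate 1 and 1017 in replicate 3. Synd ranked 11878 and 2066, MYPT-75D ranked 3149 and 619, CG17834 ranked 2095 and 436, and 1 of the Moe peaks ranked 9486 and 1590. The 5 peaks with the better rank in replicate 1 had summits between −140 and 29 bp, and the 5 with the better rank in replicate 3 between −440 and −131 bp. Both RpL30 peaks are among the former and match the same entry of each replicate list, so their ranks are not separate observations. Over all members the better rank was in replicate 1 for 43.9% of summits more than 300 bp upstream and for 64.2% of those within 50 bp of the start.

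A 9-letter word stood out in the DNA under the members. All words of 8 letters were counted on both strands in windows reaching 100 bp upstream and downstream of each summit. Among those found in at least 5% of member windows, CACAGTGG and CACTGTGC had the highest ratio to flanks 1 kb away. They overlap on opposite strands and join to CCACTGTGC. The words were picked for these values, which are therefore given as a description.

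CCACTGTGC occurred in 50 member windows (4.81%, interval 3.59 to 6.29%), each with a site of its own. It occurred in 0.288% of the flanks, in 0.549% of single promoters without a summit and in 0.78% of all 19607 promoters, read in windows of equal length centred at −166 bp. Divergent-promoter peaks held it in 10 of 821 windows (1.22%, 0.586 to 2.23%) and peaks outside promoters in 3.55%. With each replicate's list taken alone the shares were 4.0% and 4.76% at single promoters and 1.72% and 1.00% at divergent ones. The order was the same in both, but the word was picked from peaks of these same libraries. Single-promoter entries below the IDR set held the word in 1.96% of windows at ranks 3975 to 10000 and in 0.804% at lower ranks.

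Promoters with this word were often member promoters. Of 151 non-divergent start sites with the word within 300 bp upstream, 57 (37.7%, interval 30 to 46.0%) had a member, against 7.32% of all non-divergent start sites. The word was picked for its frequency in these same member windows, so a higher share follows from the choice and is description only. Members with the word had a median signal of 208.3, against 133.5 for those without it, and 46 of the 50 ranked in the upper list of both replicates. It was present in 10 of the 100 strongest members and in 1 of the 100 weakest. The word was not centred on the summit, from which it lay a median of 58 bp away, and its median position was −119.5 bp from the TSS, with 32 of 50 copies on the strand of the gene. The 7-letter core shared by both words, CACTGTG, was in 103 member windows (9.90%), with C before it in 61.2% and C after it in 63.1%. This core was in 2.79% of flanks, 2.64% of all promoters and 4.14% of divergent-promoter peaks. Peaks outside promoters held it in 8.05%, close to the share in members. Under a lower minimum of 2% of windows, CAGCCCTG had the highest ratio of 1346 words: it was in 25 members (2.40%), 0.192% of flanks and 0.821% of all promoters, and in 3.78% of divergent-promoter peaks.

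The core known for Six-type proteins occurred at similar shares in members and around them. TGATAC was in 55 member windows (5.29%, interval 4.01 to 6.83%), in 5.05% of flanks, in 5.41% of single promoters without a summit and in 5.33% of all promoters. In the replicate lists alone it was in 5.76% and 5.04%. Of the 101 other words with the same letters, 62 had a higher ratio of member windows to flanks. Divergent-promoter peaks held TGATAC in 5.60% of windows. Peaks outside promoters held it in 7.43%, against 3.95% of their own flanks. The similar shares are thus a description of the members and not of all peaks. The part of base composition in the share outside promoters was not tested. The longer MEF3 word of Six-type proteins, TCAGGTTTC, was in 1 member window and in 0.08% of all promoters. A related word of GATA factors, TGATAA, was in 16.1% of members, 13.0% of flanks and 17.3% of all promoters.

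Of the promoter words of broadly expressed genes, the DRE was less frequent at single than at divergent promoters, while the intervals of the M1BP word overlapped. Windows followed the summits, which lay closer to the start at divergent promoters, and the part of this in the shares was not tested. The DRE was in 40 member windows (3.85%, interval 2.76 to 5.20%) and in 90 divergent ones (11.0%, 8.91 to 13.3%), with 0.721% in member flanks, 1.61% at single promoters without a summit and 2.97% of all promoters. Replicate 1 gave 4.74% against 10.6% and replicate 3 gave 3.43% against 10.8%. The BEAF-32 core CGATA, which lies within the DRE, was in 32.1% of members, 44.7% of divergent-promoter peaks and 29.4% of all promoters. The M1BP word was in 23 members (2.21%, interval 1.41 to 3.30%), 3.41% of divergent-promoter peaks (2.28 to 4.89%) and 1.43% of all promoters. Members with a DRE had a median signal of 105.7 and lay close to the start, with the DRE at a median of −53.5 bp.

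**Figure D4:**
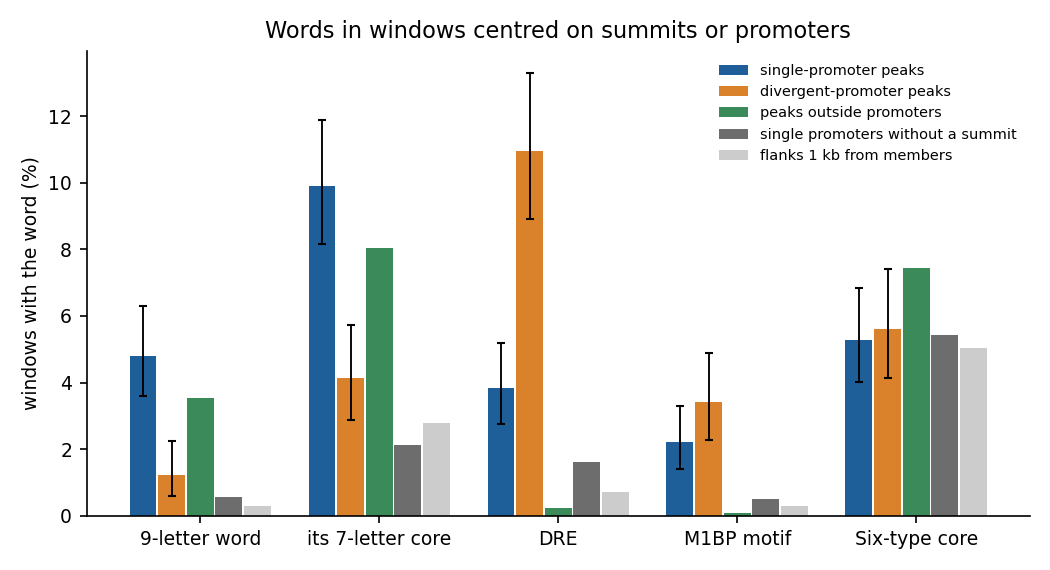
Share of windows of 201 bp (y axis, percent) that hold each word on either strand, for summits of the 3 peak classes, for single promoters without a summit and for flanks; error bars, on the first and second bar of each set, are exact 95% intervals for counting error. The 9-letter word is in 4.81% of single-promoter and 1.22% of divergent-promoter peaks, the DRE in 3.85% and 11.0%, and the Six-type core in 5.29% and 5.60%.

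Among the other words, GAGAG and CAGCTG differed between single and divergent promoters, but their shares in members were near those of all promoters. The member windows had 35.9% GC and their flanks 42.6%, and the part of base composition in the shares of words was not tested. TATAAA was in 35.4% of members and 22.5% of flanks (31.9% of all promoters), yet 13 of 14 words with the same letters had a higher ratio. TAATTA, a word of many homeodomain proteins, was in 17.1% and 11.1% (16.6% of all promoters), with 12 of 13 same-letter words above it. GAGAG, the word of GAGA factor, was in 25.6% of members, 23.3% of flanks and 24.5% of all promoters, against 15.0% of divergent-promoter peaks. Single promoters without a summit held it in 27.6%. CAGCTG, an E-box, was in 9.04% of members and 14.0% of divergent-promoter peaks (9.43% of all promoters). The site of Mef2, a muscle transcription factor, was in 11 members (1.06%) and 1.00% of all promoters.

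Core promoter elements were also read at the start sites themselves, on the strand of the gene. A TATAAA between −45 and −15 bp was found at 35 of 982 start sites with a member (3.56%, interval 2.49 to 4.92%), against 9.36% of the 12210 single-promoter start sites without a summit (8.85 to 9.89%) and 2.70% at divergent start sites next to a peak. The initiator core TCAGT within 10 bp of the start was at 17.6%, 15.8% and 5.52%. The downstream word CGGAC between 20 and 40 bp was at 4.79% (3.54 to 6.31%), 2.24% and 1.10%. With replicate 1 alone the 3 shares at single promoters were 3.72%, 18.4% and 5.38%, and with replicate 3 alone they were 3.34%, 18.0% and 4.75%. Member start sites thus had a TATA box less often than other single promoters in both replicates, and the downstream word more often.

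Gene groups were read against the 9.57% of all eligible genes that had a member. A gene was eligible when it had a non-divergent TSS. Per gene, this share was 5.63% with 1 start site and 13.9%, 22.3% and 35.7% with 2, 3 and at least 4. The lists were not matched for the number of start sites, and its part in their shares was not tested. The 29 lists were assembled with earlier results of these data known, so their counts describe and do not test. Glycolysis had the highest share, 6 of 9 eligible genes, followed by the cytosolic ribosomal proteins with 18 of 38.

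The glycolysis list held genes of the pathway from glucose to pyruvate and also Ldh, which acts on pyruvate. Its 6 genes with a member had upstream peaks, 4 of them ranked 519 or better in the IDR set. The other 2 were of moderate or low rank. Gapdh2, glyceraldehyde-3-phosphate dehydrogenase, ranked 38 in replicate 1 and 85 in replicate 3. Ldh, lactate dehydrogenase, ranked 164 and 192 with signals of 183 and 221, and Eno, enolase, ranked 235 and 206 with 158 and 216. Hex-A, a hexokinase, ranked 413 and 703. Pgk and PyK, the kinases that make ATP in the pathway, ranked 1596 and 936, and 3099 and 2266. All 6 summits lay between −399 and −145 bp and all 6 ranked in the upper list of both replicates. With either replicate's list alone the share was 66.7%.

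At ribosomal protein genes the peaks lay close to the start site. The strongest peak of each of the 18 genes lay within 100 bp of the TSS, from −96 to 20 bp, where 24.0% of all members did. A second, weaker peak at RpL30 lay at −140 bp, and RpL37-1, which the name pattern of the list leaves out, had its peak at −122 bp. The strongest were RpL23A, with signals of 139 in replicate 1 and 148 in replicate 3, RpL24 (138 and 107), RpL11 (104 and 127) and RpL22 (99.4 and 109). The replicates ordered these 18 peaks differently: 17 of 18 had the better rank in replicate 1 (94.4%, interval 72.7 to 99.9%), with RpL12 as the exception, while 484 of all 1040 members did (46.5%). Median ranks of the 18 were 1023 and 2704.5. Among the members within 50 bp of a TSS that belong to no ribosomal protein gene, 57 of 95 (60.0%, 49.4 to 69.9%) had the better rank in replicate 1. With the list of replicate 1 alone 52.6% of eligible ribosomal protein genes had a peak and with that of replicate 3 alone 36.8%, so 1 library moves this count. What else differed between the libraries was not tested.

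Translation factors had 7 of 30 eligible genes with a member. The peak at eIF6, a factor that keeps the large ribosomal subunit free, had signals of 196 and 269 and ranked 131 and 117. Those at eEF1gamma and eEF1alpha1, subunits of the elongation machinery, ranked 303 and 667, and 1457 and 1842. The other 4 were eIF2D, eEF2, eIF2A and eIF4A, with pooled signals from 85.9 to 129.7. Of the 7 summits, 6 lay within 100 bp of the start. Mitochondrial ribosomal proteins had 2 of 15, mRpL19 and mRpL13, both weak (84.1 and 81.9).

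**Figure D5:**
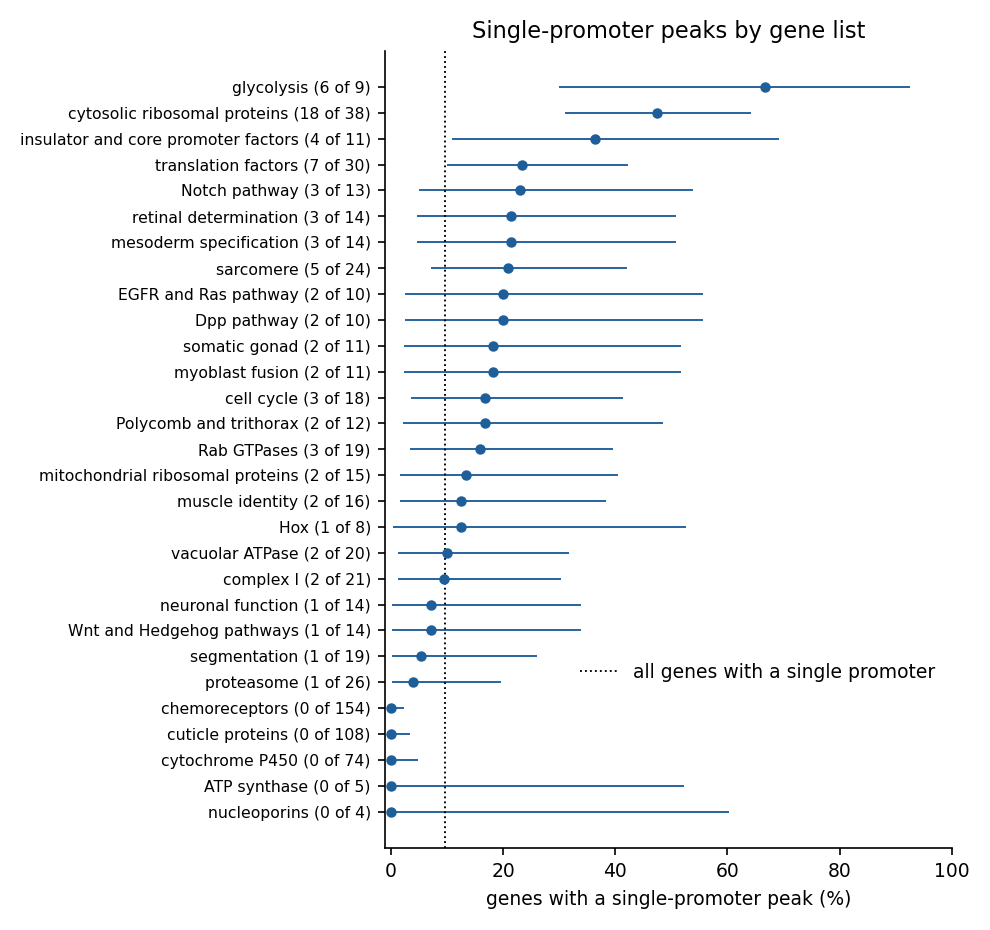
Share of eligible genes of each list that have a single-promoter peak (x axis, percent), with exact 95% intervals for counting error and the counts beside the list names; the dotted line is the share over all eligible genes, 9.57%. Glycolysis (6 of 9) and cytosolic ribosomal proteins (18 of 38) lie furthest right, and the chemoreceptor, cuticle protein, cytochrome P450, ATP synthase and nucleoporin lists lie at 0.

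Six4 had a member at its own promoter. The peak at chr3L:20792808-20793231 had its summit at −243 bp, with signals of 50.5 in both replicates and ranks of 2539 and 3428, so it was found in the upper list of both. The line carries a Six4 transgene, and no input library was analysed here. If the transgene holds this region, its DNA cannot be told apart from that of the Six4 locus. Of the retinal determination genes, the network of the sine oculis relatives, 3 of 14 had a member: Six4, eyg and so. The signals were 60.7 and 38.2 for eyg, a Pax-type factor gene, and 33.9 and 47.6 for so, the founding gene of the family. Each of these was in the upper list of 1 replicate: eyg ranked 1838 and 5058, and so ranked 4742 and 3718.

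Genes of mesoderm and muscle, the tissues in which Six4 is known to act, had members in small numbers. Mesoderm specification had 3 of 14: tin, the heart and visceral mesoderm homeobox gene, with signals of 117 and 121, stumps (87.8 and 126.8) and htl, the FGF receptor in whose pathway stumps acts (64.6 and 73.2). Muscle identity had 2 of 16, org-1, a T-box gene (166 and 174), and Poxm, a paired-box gene (109 and 149.8). All 5 ranked within the upper list of both replicates, with summits between −399 and −232 bp. Sarcomere genes had 5 of 24: tmod, sls, Tm1, Act87E and Actn, which encode tropomodulin, the titin-like Sallimus, a tropomyosin, an actin and alpha-actinin. Their pooled signals ran from 92.0 to 201.3 and all 5 summits were between −484 and −256 bp. Myoblast fusion had 2 of 11 (rols and WASp), and the somatic gonad list 2 of 11, dsx and Six4 itself. The exact interval of each of these 5 shares reached below 9.57%.

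Signalling and patterning genes gave a few strong single peaks. In the Notch pathway, 3 of 13 had members, among them numb, an inhibitor of Notch, with signals of 174 and 225. The others were E(spl)m7-HLH, a Notch target (103 and 86.6), and neur, a ligand-regulating ubiquitin ligase gene (53.9 and 96.1). In the EGFR pathway, the ligand gene spi (125.6 and 204.3) and the inhibitor gene aos (187 and 214) were 2 of 10. The Dpp pathway had shn and the receptor gene tkv (2 of 10), and the Wnt and Hedgehog list had sgg, the GSK3 kinase gene (1 of 14). Hox genes had Dfd (1 of 8), and segmentation genes had bcd (1 of 19).

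Chromatin and promoter factor genes were members as well. The insulator and core promoter factor list had 4 of 11: Taf4, a TFIID subunit, Trl, the GAGA factor gene, and BEAF-32 and CTCF, which encode insulator proteins. The CTCF peak ranked 11512 in replicate 1 and 3064 in replicate 3, and the other 3 were in the upper list of both. Polycomb and trithorax genes had ph-p and Psc (2 of 12), at signals of 1013 and 101.0 in the pooled list. The cell cycle list had Dp, E2f1 and polo (3 of 18), and the neuronal list had elav, an RNA-binding protein gene with signals of 218 and 281 (1 of 14).

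Other housekeeping lists with at least 1 member had shares from 3.85 to 15.8%. Rab GTPases and regulators had 3 of 19 (Rab5, Rab11 and Rab3-GAP), complex I had 2 of 21 (ND-B17 and ND-13B), the vacuolar ATPase had 2 of 20 (Vha68-2 and Vha16-1), and the proteasome had Rpn11 (1 of 26). ATP synthase and nucleoporin genes had none of 5 and of 4 eligible genes. Gene families with narrow or late expression had no member: 0 of 154 chemoreceptor genes, 0 of 108 cuticle protein genes and 0 of 74 cytochrome P450 genes. Read as up to 3 genes, these counts allow shares of up to 1.95%, 2.78% and 4.05%, and the exact intervals reach 2.37%, 3.36% and 4.86%. In replicate 1 alone 0.926% of the cuticle protein genes had a peak.

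The limits of the rule fell within a continuous distribution. Just inside 500 bp were the peaks at Pino (−500 bp, signal 152), Cpsf6 (500 bp, 81.1) and chk (498 bp, 184), and just outside it those at tou (−502 bp, 151), ITP (−502 bp, 105.0) and CG43901 (−504 bp, 127). Members whose opposite neighbour was just beyond 1 kb were Droj2 (1013 bp), Eno (1015 bp) and Nrx-1 (1024 bp). Peaks with a neighbour just within it were at hts (999 bp), Pax (977 bp) and Ank2 (955 bp). An opposite-strand start of any gene type, noncoding ones included, lay within 1 kb upstream for 71 members, 36 members had a start site of another gene within 500 bp of the summit, and 29 were at equal distance from start sites of 2 genes.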

How the data were processed

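Whole-embryo Six4-GFP ChIP-seq was deposited as peak lists for 2 biological replicates and for both pooled, with an IDR set that, per the file listing, derives from them. Each entry has a signal value and a −log10 q value from the authors' peak caller. The deposited signal ranked entries, since most −log10 q values are tied. Which aligner and peak caller they ran, and at what IDR threshold, is not given in the sources used here. The replicate lists hold 30000 and 28237 entries, background included. Read depth is unknown, so the exact (Clopper-Pearson) 95% intervals cover counting error over peaks or genes only.

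Coordinates are dm6, counted from 1. Start sites came from Ensembl release 115 (FlyBase 6.54) and sequence from the Release 6 genome. A tie in distance went to the first gene ID. Each peak was matched to the strongest entry of a replicate list that overlapped it by at least 1 bp. It counted as found when this entry was among the 3974 strongest. Words were searched on both strands in windows of 201 bp around summits, in flanks 1 kb to each side and in promoter windows centred at −166 bp. A count of 0 is read as up to 3. Work used Python 3.11.15, NumPy 2.4.6, pandas 2.3.3, SciPy 1.17.1 and Matplotlib 3.10.9, and the classification was checked on simulated start sites.

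Members, gene lists and words were chosen with earlier results of these data known. The genes named are Six4, those of the 20 strongest members, up to 4 per list and those with 3 or more peaks. Those of 3 peaks on each side of each limit, and of 5 per direction of the ratio of replicate ranks, are named too. Further members of the glycolysis, sarcomere, ribosomal protein and translation factor lists, and the word CAGCCCTG, were named after their values were seen. Peaks are not replicates, so classes are compared by their values in each replicate, without set tests. Of the list entries, 6 were not matched to the annotation.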

Additional observations from a re-analysis of the deposited data

How the results depend on the processing

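The study has 1 group, so its replicate numbers pair no groups, but each library gave values for both promoter classes. No paired test was run. Within each library the median signal at single minus divergent promoters was 1.53 in replicate 1 and −0.81 in replicate 3. A promoter limit of 250 bp gave 678 members, a median summit of −126 bp, 4.57% of members with TGATAC and 6.73% of eligible genes with a member, and one of 1000 bp gave −176.5 bp, 81.4% upstream, 5.92% and 11.6%. A divergent limit of 500 bp gave −162 bp and 9.93% of genes, and one of 2 kb −171 bp, 88.4% upstream and 9.10%. Start sites of any biotype gave −163 bp, 84.5% upstream and 5.94%, and the most 5′ start site of each gene −143.5 bp, 84.1%, 4.05% with TGATAC and 7.81%. The 1987 strongest IDR peaks gave 572 members, −180.5 bp, 88.6%, 5.94% with TGATAC and 5.42% of genes. Taking 1 replicate's list at a time gave 1051 to 1076 members, medians of −166 to −164.5 bp, 85.5 to 86.8% upstream, 5.04 to 5.76% with TGATAC and 9.56 to 9.96% of genes. TGATAC was in 2.98% of windows of 50 bp to each side and 11.5% of those of 250 bp. Of members, 73.4% were in both replicates with summits within 100 bp, 100% in the whole lists and 49.1% in the 2000 strongest entries. Without peaks that have another gene's start site within 500 bp, chosen after the data were seen as was the omission of ties, 9.25% of genes had a member. The median summit was upstream under each alternative. Short lists crossed the share of all genes: at 250 bp sarcomere genes fell to 4.17% and muscle identity genes to 0, and somatic gonad and retinal determination genes had 0 among the 1987 strongest peaks. Of the other alternatives, 125 of 221 motif shares and 108 of 319 gene list shares moved by more than 1 SD of the values in the 2 replicate lists. Cytosolic ribosomal proteins had 28.9% among the 1987 strongest, and glycolysis had from 42.9 to 75% across all settings. With 2 libraries, no control and unknown depth, single weak peaks rest on few data, and the causes of these shifts were not tested.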
